A study of Mus musculus with 36 samples.

Results

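Tumour-associated macrophages (TAMs) were compared between *muMt*-/- mice that carried a GABA pellet and *muMt*-/- mice that carried a placebo pellet. The libraries were taken by cell type, genotype and treatment from the labels, 6 with GABA and 6 with placebo, which makes 12 of the 36 libraries of the series. The study asked how GABA, a metabolite that B cells release, acts on immune cells in tumours, and the comparison addresses which TAM transcripts differ when GABA is given to mice that have no B cells to supply it. The *muMt*-/- mice were on the C57BL/6J background, and mice were 2 to 5 months old in the study as a whole. Each mouse received a pellet under the skin, either placebo or GABA made for release over 21 days. The tumour, started 1 day later, came from MC38, a mouse colon adenocarcinoma line, injected into the skin of the flank. On day 7, each tumour yielded 1 library, made from 100 sorted CD45+CD11b+F4/80 high cells of a single mouse. The labels give the treatment of the placebo group as none, and the word placebo comes from the study's text. The *muMt*-/- mutation disrupts the membrane form of the IgM heavy chain in every cell from birth, so these mice never form mature B cells, and it was present in all 12 libraries. Further libraries serve as references. They are 6 TAM libraries of placebo-treated WT mice, whose substrain the labels do not give, and the 12 CD8+ T cell libraries of *muMt*-/- mice with GABA or placebo at the same day.

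GABA is best known as an inhibitory neurotransmitter. It is made from glutamate by glutamate decarboxylase and acts through GABA_A_ receptors, which are chloride channels, and through GABA_B_ receptors, which are coupled to G proteins. Macrophages respond to TNF and to microbial products through NF-κB and immediate early transcription factors, which switch on cytokines and chemokines, and IL-10 restrains that response. In tumours they are known for scavenger receptors, factors that remodel matrix and vessels, and the uptake of debris.

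Few genes passed the test over all genes, and several gene groups leaned to one side without passing it. Among 9469 genes tested, the long non-coding RNA *BC018473* fell with GABA (log2 fold change -2.38, SE 0.26, 6 against 6 libraries) and *Lrrc17*, which encodes a secreted leucine-rich repeat protein, rose (log2 fold change 1.58, SE 0.25). At an unadjusted p under 0.05, 53 of 83 cytosolic ribosomal protein genes and 12 of 29 genes of the ATF4 amino acid response were higher with GABA, against 5.15% of all genes, and 0 of either list were lower. With total molecules as a covariate 26 and 11 were higher, against 4.32% of all genes, and 1 gene of the ATF4 response was lower. On the other side, 5 of 10 CXC chemokines and 4 of 8 chemokine receptors were lower and 0 higher, against 3.31% of all genes lower. Of the 5 chemokines, *Cxcl12* had a median under 1 normalized molecule in each group. With that covariate 3 members of each list were lower, against 2.71% of all genes. Of 23 genes of alternative activation and scavenging 9 were lower and 2 higher, and 5 were lower with total molecules as a covariate. Genes of antigen presentation and of the interferon responses had medians near that of all genes.

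The placebo libraries held 100254, 154327, 209198, 145593, 253608 and 124488 molecules in replicates 1 to 6 (median 149960). The GABA libraries held 151856, 262606, 185899, 199651, 182439 and 225433 molecules (median 192775), and the WT libraries 206394 to 304100 (median 242756). The ratio of GABA to placebo, here and for the other library measures the ratio of geometric means, was 1.26 (exact two-sided permutation p = 0.171, or 0.321 after adjustment for the 15 library measures), and 6 of 6 GABA libraries lay above the placebo median. Without placebo replicate 5, the deepest of its group, the ratio was 1.39, with an unadjusted exact p under 0.05. Each library holds the RNA of 100 cells, and in such bulk samples fewer cells of a type and less RNA per cell cannot be told apart. Spike-in molecules were added to every tube, but the table of counts has no row for them, so molecules per cell could not be scaled.

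GABA replicate 1 stood apart from the other 5 GABA libraries. Its median correlation with the other 17 TAM libraries, over log2 values of the genes tested, was 0.721, while the other 5 GABA libraries had 0.786 to 0.811. It also held the lowest share of molecules on macrophage markers among the 12 libraries (1.43%) and the highest on *Rn45s*, the ribosomal RNA precursor (19.9%). The share on *Rn45s* in placebo replicate 4 was 18.8%. Among the placebo libraries, replicate 4 had the highest share on nuclear RNA (1.05%, with the next at 0.606%), and replicate 1, the shallowest, had the lowest median correlation (0.725).

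The share of molecules on nuclear RNA, a list led by *Malat1*, lay between 0.469% and 1.05% in placebo libraries (median 0.577%) and between 0.349% and 0.535% in GABA libraries (median 0.388%). The ratio was 0.665 (exact permutation p = 0.00649, or 0.0487 after adjustment), and 5 of 6 GABA libraries lay below every placebo library, the exception being GABA replicate 1. The WT libraries held 0.317% to 0.389%. Nuclear RNA is a common sign of damaged cells or of loss of cytoplasm, and of the 8 transcripts on the list, *Xist* and *Miat* were at 0 in all 12 libraries. The share on ribosomal protein genes went the other way, from 6.73% to 9.46% with placebo (median 8.10%) against 9.14% to 11.6% with GABA (median 10.2%), a ratio of 1.27 (exact permutation test, p = 0.00433, adjusted p = 0.0487). In 5 of 6 GABA libraries it was above every placebo library, again with GABA replicate 1 as the exception. The other 13 measures, listed with the marker genes, did not pass the adjustment over the 15.

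**Figure D1:**
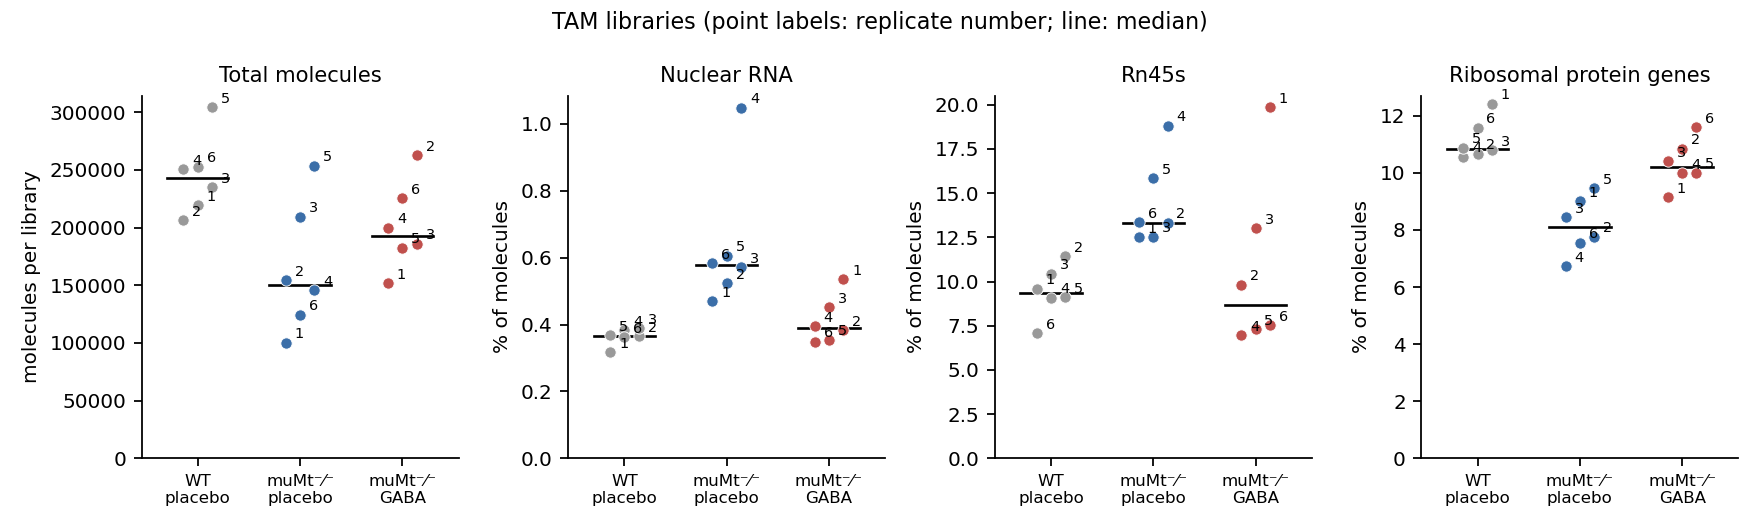
Each point is a TAM library, labelled with its replicate number, and each line is a group median. The vertical axes give total molecules and the percent of molecules on nuclear RNA, on *Rn45s* and on ribosomal protein genes, and GABA replicate 1 (19.9% *Rn45s*) and placebo replicate 4 (1.05% nuclear RNA) lie away from their groups.

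Markers of the sorted cell type were present, since all 22 macrophage markers had molecules in the 12 libraries. They took 1.89% to 2.48% of molecules with placebo (median 2.23%) and 1.43% to 2.60% with GABA (median 2.38%; exact permutation test, adjusted p = 0.844). The most abundant was *Ctss*, a lysosomal protease, at 479.7 to 934 normalized molecules with placebo (median 665) and 287 to 928 with GABA (median 757). Normalized molecules are counts divided by a size factor per library. Several defining markers of other cells were at 0 in all 12 libraries, among them *Cd3g*, *Cd4*, *Lat* and *Cd5* of T cells, *Cd79a*, *Pax5*, *Blk*, *Cr2* and *Jchain* of B cells, *Ncr1* and *Klra8* of NK cells, *Cpa3* and *Mcpt4* of mast cells, and *Epcam*, *Krt18*, *Krt19* and *Krt20* of epithelium. Other markers on the same lists had molecules, 13 of 18 for T cells, 6 of 12 for B cells, 7 of 9 for NK cells, 3 of 9 for mast cells and basophils and 5 of 12 for epithelial and tumour cells. A count of 0 allows a share of up to 0.000137% of the 2195352 molecules of the 12 libraries, for counting error alone.

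Among the marker lists of other cells, fibroblast markers had the largest sum of molecules. The sort on CD45, CD11b and F4/80 is one that fibroblasts do not pass, and the source of these molecules was not tested. All 12 fibroblast markers had molecules, summing to 14 to 474 per placebo library (median 115) and 107 to 747 per GABA library (median 148). Their most abundant gene was the collagen *Col3a1*, at 6.22 to 140.1 normalized molecules with placebo (median 57.7) and 70.4 to 198 with GABA (median 88.5). The medians of the shares were 0.0590% and 0.0796%, and the ratio of their geometric means was 2.06 and did not pass (exact permutation test, p = 0.212, adjusted p = 0.353), although 6 of 6 GABA libraries lay above the placebo median. Dendritic cell markers summed to 3 to 30 molecules with placebo (median 7) and 14 to 24 with GABA (median 19.5, adjusted p = 0.255 by the exact permutation test), NK cell markers to at most 5 and 16 molecules (adjusted p = 0.255), and neutrophil markers to 28 to 60 and 18 to 55 (adjusted p = 0.283). Adjusted p by the same exact test was 0.844 for T cell markers, 0.844 for B cell markers, 0.911 for mast cell and basophil markers, 0.255 for epithelial and tumour cell markers, 0.448 for endothelial markers, 0.77 for erythroid markers and 0.255 for the number of genes detected. The part of these transcripts in the gene results was not tested. *Xist* was at 0 and genes of the Y chromosome had molecules in all 12 libraries.

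*BC018473* (chr11:116752167-116757883, mm10) had 31.3 to 84.8 normalized molecules in placebo libraries (median 67.0) and 5.05 to 16.3 in GABA libraries (median 11.8). All 6 GABA libraries lay below every placebo library, and no library of either group came near the other range. The call did not rest on a single library, since the log2 fold change lay between -2.54 and -2.20 with each library left out in turn (adjusted p = 1.95e-07 with all libraries). WT libraries held 82.1 to 123 (median 114). In CD8+ T cells the log2 fold change of the same gene was -1.15 and did not pass. It is on the list used here for host transcripts of small nucleolar RNAs, and whether it hosts one was not tested.

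*Lrrc17* (chr5:21543527-21575911), whose product is known to hold back osteoclast formation from macrophage precursors, had 135 to 497 normalized molecules with placebo (median 244) and 429 to 1159 with GABA (median 875, adjusted p = 0.0012). The groups touched, with 4 of 6 GABA libraries above every placebo library and 6 of 6 above the placebo median. The WT median of 462 lay between those of the groups, and the WT range of 284 to 614 overlapped both. A robust version of the fit kept the size of the difference but not the call (adjusted p = 0.154), while the call held under each of the other alternatives tried. The interval of *Lrrc17* overlaps that of *Fbxl13*, which was too low to be tested. No strand is stated for the counts, so reads of the stretch these genes share cannot be told apart.

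These 2 genes were 0.0211% of those tested. Without adjustment 801 genes had a p under 0.05, where 473 would be reached if no gene differed, 488 of them higher with GABA (5.15%) and 313 lower (3.31%). That split moved with the scaling, to 427 and 362 with the size factors of DESeq2 and to 557 and 261 with total molecules only. The shares of all genes higher and lower were 6.37% and 4.45% without GABA replicate 1, and 4.32% and 2.71% with total molecules as a covariate. With the size factors of DESeq2 they were 4.51% and 3.82%. In 56 genes (0.591%) the ranges of the groups did not overlap, 26 higher and 30 lower with GABA. With a library left out that number lay between 74 (without GABA replicate 3) and 149 (without placebo replicate 5), which fewer libraries make easier to reach. DESeq2's Wald test called 62 genes, 30 higher and 32 lower, both of the 2 genes among them, and gave 580 genes at an unadjusted p under 0.05. The median log2 fold change over all genes tested was 0.06, the level against which lists are read.

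Without GABA replicate 1, 35 genes passed (0.37%), 22 higher and 13 lower, and the 2 genes called with all libraries were among them. Of the 35, 18 were also among the 62 called by DESeq2 with all libraries. The number fell to 4 when placebo replicate 4 was left out as well and to 15 when placebo replicate 1 was, and both pairs were chosen after the data were seen. Without placebo replicate 5 it was 12, without placebo replicate 2 it was 5, and without GABA replicate 2 it was 5. Of the 35, 33 had a mean of at least 5 normalized molecules. They include 7 genes on the list of cytosolic ribosomal proteins, and values of many of them stand below with the group each belongs to. GABA replicate 1 was singled out because an earlier account of these data had set it apart. Passing without it is therefore not a neutral check.

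**Figure D2:**
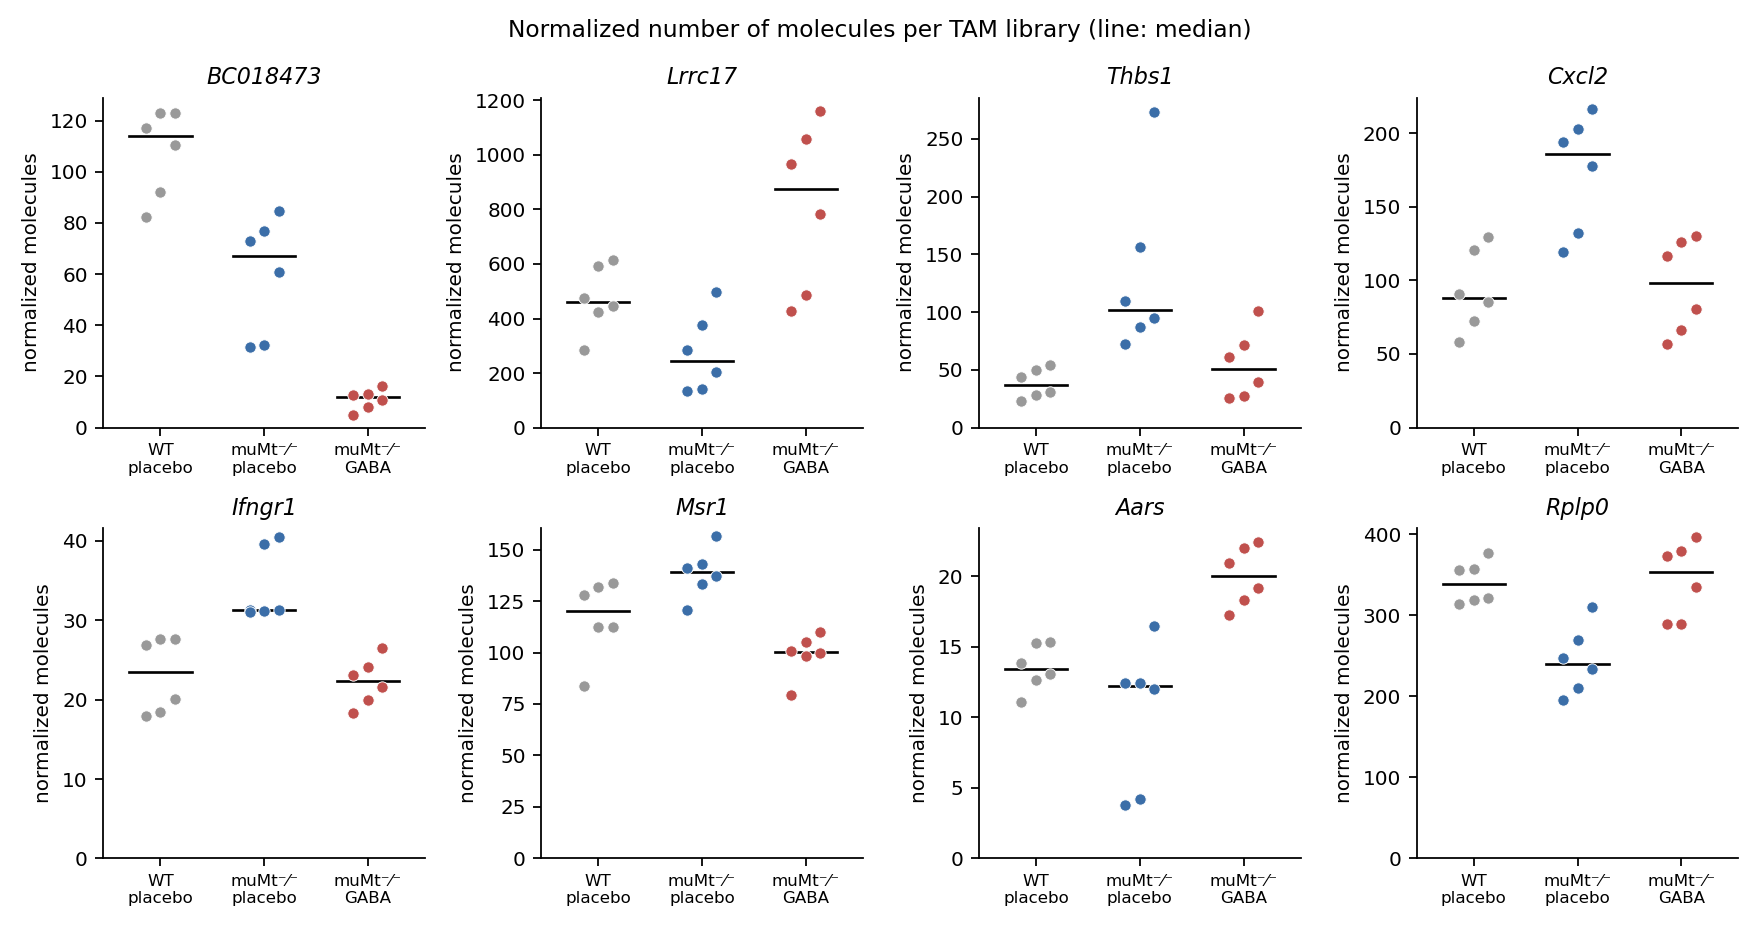
Each point is the normalized number of molecules of a gene in a TAM library, and each line is the median of its group of 6 libraries. The GABA libraries lie below every placebo library for *BC018473*, *Ifngr1* and *Msr1* and above every one for *Aars*, and the ranges touch for *Lrrc17*, *Thbs1*, *Cxcl2* and *Rplp0*.

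Genes of the TNF and NF-κB response leaned to lower values with GABA. Of 62 tested, 10 were lower (16.1%, against 3.31% of all genes) and 1 higher at an unadjusted p under 0.05, and the median log2 fold change was -0.27, between -0.28 and -0.19 with each library left out. *Cxcl2*, a chemokine that draws neutrophils, had 119 to 216 normalized molecules with placebo (median 186) and 56.5 to 130.1 with GABA (median 98.3, log2 fold change -0.84, SE 0.20, adjusted p = 0.117). In 4 of 6 GABA libraries it was below every placebo library, and without GABA replicate 1 it passed (adjusted p = 0.0217). *Il1b*, the cytokine IL-1β, had 173 to 334 with placebo (median 290.4) and 101 to 232 with GABA (median 177, log2 fold change -0.62, adjusted p = 0.278). *Gadd45b*, a stress gene induced by NF-κB, had 9.32 to 26.5 with placebo (median 12.1) and 3.61 to 13.3 with GABA (median 7.20, log2 fold change -0.96, adjusted p = 0.282). For both genes most GABA libraries lay low and the ranges overlapped.

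TNF itself and its receptor were measured too. *Tnf* had 4.61 to 21.2 normalized molecules with placebo (median 9.89) and 3.05 to 21.2 with GABA (median 7.35), ranges that coincide, with GABA replicate 1 the highest of its group. Its log2 fold change was -0.29 (SE 0.41, adjusted p = 0.904), and it changed sign without placebo replicate 2 (0.05). *Tnfrsf1b*, TNF receptor 2, had 20.7 to 35.7 with placebo (median 25.2) and 15.2 to 22.4 with GABA (median 17.2, log2 fold change -0.51, SE 0.20, adjusted p = 0.44), and 5 of 6 GABA libraries lay below every placebo library. The study lists 100 TNF target genes for TAMs, with a median log2 fold change of -0.39 and 0 called. At an unadjusted p under 0.05, 40 were lower and 0 higher, against 3.31% and 5.15% of all genes. With total molecules as a covariate 28 were lower, against 2.71% of all genes. These genes were chosen by the study on these libraries, so their count is not independent evidence of a direction.

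Immediate early genes, the transcription factors and phosphatases that switch on within minutes of a stimulus, had 9 of 37 lower and 1 higher, against 3.31% and 5.15% of all genes, with a median of -0.28. With total molecules as a covariate 6 were lower, against 2.71% of all genes. *Fosb* had 38.8 to 107 normalized molecules with placebo (median 52.4) and 27.4 to 38.6 with GABA (median 37.3, log2 fold change -0.75, SE 0.21, adjusted p = 0.195), and all 6 GABA libraries lay below every placebo library. *Fos*, the most abundant, had 249 to 484 with placebo (median 320.0) and 200.5 to 290.0 with GABA (median 247, log2 fold change -0.42, adjusted p = 0.341), with overlapping ranges. Many of these genes are also induced when tissue is dissociated. On a list of 12 such dissociation genes 2 were lower and 0 higher, and their share of molecules was 0.385% to 0.600% with placebo and 0.344% to 0.417% with GABA. The part of dissociation was not tested.

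Chemokines and their receptors were lower in several members. Of 10 CXC chemokines tested 5 were lower and 0 higher (median log2 fold change -0.46, and 3 lower with total molecules as a covariate), and of 11 CC chemokines 2 were lower and 0 higher, against 3.31% and 5.15% of all genes. Besides *Cxcl2*, *Cxcl1* had 1.24 to 9.42 normalized molecules with placebo (median 5.62) and 0.831 to 5.31 with GABA (median 2.36, log2 fold change -1.16, adjusted p = 0.517), and *Pf4*, platelet factor 4, had 13.8 to 60.3 and 2.01 to 25.2 (medians 28.5 and 18.9, adjusted p = 0.497). In neither did the groups separate. The 5 also include *Cxcl12*, with 0 to 9.22 normalized molecules with placebo (median 0.392) and 0 in every GABA library. Its log2 fold change was -4.38 with an SE of 1.94 (adjusted p = 0.543), at numbers too low to read a size from. *Cxcl9*, the CXC chemokine with the highest mean, had 170 to 319 with placebo (median 249) and 106 to 351 with GABA (median 271, log2 fold change 0.02, adjusted p = 0.989), and its sign moved with the scaling. *Ccl17*, which draws T cells through CCR4, lay at 0 to 34.9 with placebo and 0 to 7.11 with GABA, and its top placebo value came from replicate 4. Without GABA replicate 1 the counts higher and lower were 1 and 4 for CXC and 0 and 1 for CC chemokines.

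Of 8 chemokine receptors tested 4 were lower and 0 higher (all genes 3.31% and 5.15%), with a median of -0.40. *Ccr2*, the receptor by which monocytes leave the blood for tumours, had 168 to 477 normalized molecules with placebo (median 268) and 116 to 304 with GABA (median 161, log2 fold change -0.63, SE 0.19, adjusted p = 0.259). Its highest value in each group was in placebo replicate 4 and in GABA replicate 1, 4 of 6 GABA libraries lay below every placebo library, and it passed without GABA replicate 1 (adjusted p = 0.0214). *Cxcr4*, the receptor for CXCL12, had 17.1 to 71.6 and 15.9 to 31.0 (medians 28.6 and 21.2, adjusted p = 0.393), with overlapping ranges.

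Genes linked to alternative activation and scavenging had 9 of 23 members lower and 2 higher, against 3.31% and 5.15% of all genes. With total molecules as a covariate 5 were lower (2.71% of all genes), and the list's median of -0.22 lay between -0.43 (without GABA replicate 6) and -0.04 (without placebo replicate 5), so the members are better read singly. *Msr1*, a scavenger receptor for modified lipoproteins, had 121 to 156 normalized molecules with placebo (median 139) and 79.3 to 109.9 with GABA (median 100.1, log2 fold change -0.45, SE 0.14, adjusted p = 0.285), with all 6 GABA libraries below every placebo library. *Mrc1*, the mannose receptor, had 11.2 to 191 with placebo (median 40.2) and 14.1 to 74.3 with GABA (median 24.4, log2 fold change -0.98, adjusted p = 0.432). That value lay between -1.37 (without GABA replicate 1) and -0.21 (without placebo replicate 4). Its ranges overlapped fully, and placebo replicate 4 and GABA replicate 1 were each the highest of their group. *Trem2*, a lipid receptor of debris-clearing macrophages, went the other way, with 9.95 to 21.8 with placebo (median 15.4) and 6.64 to 35.3 with GABA (median 27.3, log2 fold change 0.61, adjusted p = 0.502), and 4 of 6 GABA libraries above every placebo library and GABA replicate 1 below them.

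Regulators of the macrophage lineage had 6 of 23 lower and 0 higher, against 3.31% and 5.15% of all genes, with a median of -0.27 that lay between -0.32 and -0.19 with each library left out. *Zeb2*, a repressor that maintains macrophage identity, had 96.3 to 255 normalized molecules with placebo (median 115) and 49.4 to 158 with GABA (median 80.3, log2 fold change -0.62, adjusted p = 0.333). It passed without GABA replicate 1 (adjusted p = 0.0344), the library with the highest GABA value, and 5 of 6 GABA libraries lay below every placebo library. Its log2 fold change was -0.84 without that library and -0.36 without placebo replicate 4, which held 255 where the next placebo library held 118. *Bhlhe40*, a repressor active in inflammatory macrophages, had 12.4 to 22.6 with placebo (median 16.6) and 3.98 to 11.5 with GABA (median 9.10, log2 fold change -0.91, SE 0.25, adjusted p = 0.196), and *Maf* had 47.0 to 76.1 and 36.6 to 47.3 (medians 59.6 and 40.7, log2 fold change -0.52, adjusted p = 0.278). For *Bhlhe40* all 6 GABA libraries and for *Maf* 5 of 6 lay below every placebo library. *Itgam*, the integrin CD11b on which the cells were sorted, had 133 to 197 with placebo (median 153) and 86.4 to 158 with GABA (median 118, log2 fold change -0.41, adjusted p = 0.48), and 4 of 6 GABA libraries lay below every placebo library. Of all 22 macrophage markers 6 were lower and 0 higher, or 5 and 3 without GABA replicate 1, where 4.45% of all genes were lower and 6.37% higher.

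Receptors and effectors that the study names for these cells lay lower with GABA without passing. *Ifngr1*, the ligand-binding chain of the interferon-γ receptor, had 31.1 to 40.4 normalized molecules with placebo (median 31.3) and 18.3 to 26.6 with GABA (median 22.4, log2 fold change -0.57, SE 0.18, adjusted p = 0.298), and all 6 GABA libraries lay below every placebo library. *Bcl2l11*, the apoptosis promoter BIM, had 17.1 to 35.8 with placebo (median 25.8) and 10.1 to 20.2 with GABA (median 14.3, log2 fold change -0.74, adjusted p = 0.24), with 4 of 6 GABA libraries below. *Cd44*, the hyaluronan receptor, had 117 to 158 and 88.9 to 133 (medians 133 and 107, log2 fold change -0.28, adjusted p = 0.622), with 5 of 6 below. The lists these genes belong to gave 1 of 14 BCL2 family genes lower and 0 higher, and 4 of 20 genes of leukocyte integrins and *Cd44* lower and 0 higher, or 2 and 0 with total molecules as a covariate. Of all genes 3.31% were lower and 5.15% higher, or 2.71% and 4.32% with that covariate.

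Thrombospondin 1, matrix and angiogenic factors had 4 of 43 lower and 1 higher, the latter being *Lrrc17*, against 3.31% and 5.15% of all genes. With the size factors of DESeq2 7 were lower (3.82% of all genes), and with total molecules as a covariate 6 (2.71%). The list was chosen with earlier results of these data known, so its counts are not independent evidence of a direction. *Thbs1*, an inhibitor of vessel growth that also activates TGF-β, had 72.1 to 273 normalized molecules with placebo (median 102) and 25.4 to 101 with GABA (median 50.4, log2 fold change -1.27, SE 0.27, adjusted p = 0.057). In 5 of 6 GABA libraries it was below every placebo library, it was called by DESeq2 (adjusted p = 0.029), and it passed without GABA replicate 1 (log2 fold change -1.49, adjusted p = 0.0029). Outside the list, *Htra1*, a secreted serine protease that cleaves matrix proteins, had 0 to 11.7 with placebo (median 3.27) and 10.1 to 20.8 with GABA (median 16.5, log2 fold change 1.77, SE 0.37, adjusted p = 0.057), with 5 of 6 GABA libraries above every placebo library. It passed without GABA replicate 1 (adjusted p = 0.0273), and so did *Lgals1*, galectin 1, also outside the list, whose normalized molecules were 114 to 217 with placebo (median 156) and 146 to 315 with GABA (median 231, adjusted p = 0.195 with all libraries and 0.0196 without it). *C3ar1*, the receptor for complement fragment C3a, had 116 to 218 with placebo (median 154) and 89.7 to 113 with GABA (median 99.1, log2 fold change -0.62, SE 0.15, adjusted p = 0.132). All 6 GABA libraries lay below every placebo library, DESeq2 called it (adjusted p = 0.00581), and it passed without GABA replicate 1 (adjusted p = 0.0439). Of 19 complement genes tested 4 were lower and 0 higher, or 3 and 2 without that library, where 4.45% of all genes were lower and 6.37% higher.

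Ribosomal protein genes had the most members on 1 side. Of 83 cytosolic ribosomal proteins 53 were higher at an unadjusted p under 0.05 (63.9%, against 5.15% of all genes) and 0 were lower, 0 passed the adjustment, and the median log2 fold change was 0.34, between 0.29 and 0.41 with each library left out. With total molecules as a covariate 26 were higher (4.32% of all genes in that fit), and 62 were without GABA replicate 1 (6.37% of all genes). The member with the highest mean, *Rps26*, had 364 to 620 normalized molecules with placebo (median 435) and 304 to 600 with GABA (median 421, log2 fold change -0.05, adjusted p = 0.965), and its sign moved with the library left out. *Rplp0*, of the ribosomal stalk, had 196 to 310.1 normalized molecules with placebo (median 240.0) and 289 to 397 with GABA (median 354, log2 fold change 0.51, SE 0.14, adjusted p = 0.195), and 4 of 6 GABA libraries lay above every placebo library. *Rps4x*, of the small subunit, had 156 to 224 with placebo (median 182) and 218 to 332 with GABA (median 248, log2 fold change 0.51, SE 0.14, adjusted p = 0.208), with 5 of 6 above. Without GABA replicate 1, 7 members passed, among them *Rps4x*, *Rps19*, *Rpl5*, *Rpl13*, *Rpl32* and *Rpl37* with log2 fold changes of 0.56 to 0.80, and *Rps27rt*, a retrogene copy of *Rps27*, passed with them. In *Rpl13*, GABA replicate 1 lay below every placebo library and the other 5 lay above every one. The part of nuclear RNA in these values was not tested.

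Other parts of the translation and energy machinery leaned the same way with fewer members. Mitochondrial ribosomal proteins had 7 of 77 higher (9.09%, against 5.15% of all genes) and 0 lower, and translation factors 9 of 49 higher (18.4%) and 0 lower. Of the respiratory chain, complex I had 6 of 36 higher, complexes II and III 3 of 14, complex IV 3 of 12 and complex V 5 of 18, with 0 lower in each. Their medians were 0.23, 0.14, 0.29 and 0.32, and the counts were 2, 1, 0 and 2 with total molecules as a covariate and 10, 4, 6 and 9 without GABA replicate 1, where 4.32% and 6.37% of all genes were higher. With the size factors of DESeq2 complex I had 3 higher and complex IV 1. The median of complexes II and III was 0.24 without that library. *Atp5g2*, a subunit of the proton ring of ATP synthase, had 32.4 to 51.7 normalized molecules with placebo (median 41.9) and 43.8 to 85.6 with GABA (median 63.4, log2 fold change 0.61, SE 0.17, adjusted p = 0.196). In 5 of 6 GABA libraries it was above every placebo library, and it passed without GABA replicate 1 (adjusted p = 0.0344). *Ndufa4*, a complex IV subunit, had 1.55 to 14.7 and 9.06 to 24.1 (medians 12.9 and 16.8, adjusted p = 0.569), with overlapping ranges. The 25 OXPHOS genes that the study lists had 11 higher and 0 lower (median 0.39). With the covariate 4 were higher, with the size factors of DESeq2 7, and 19 were without GABA replicate 1 (median 0.51). The study chose them on these libraries, so this is not independent evidence.

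Further genes were named for a small p with all libraries or for passing without GABA replicate 1. *C1qbp*, a mitochondrial matrix protein, had 6.97 to 14.9 normalized molecules with placebo (median 12.5) and 10.6 to 31.6 with GABA (median 21.2, log2 fold change 0.96, SE 0.26, adjusted p = 0.195). *Timm8a1*, an import chaperone, had 1.24 to 7.37 with placebo (median 2.12) and 6.04 to 18.6 with GABA (median 11.3, log2 fold change 1.68, SE 0.41, adjusted p = 0.132). In each of these genes 5 of 6 GABA libraries lay above every placebo library, and *C1qbp* passed without GABA replicate 1 (adjusted p = 0.042). *Prmt1*, the main arginine methyltransferase, had 6.22 to 13.2 and 12.8 to 27.4 (medians 9.36 and 20.2, log2 fold change 1.06, adjusted p = 0.156), and *Exosc2*, an exosome subunit, 11.98 to 21.8 and 20.1 to 46.7 (medians 18.9 and 32.6, log2 fold change 0.85, adjusted p = 0.156). Both also had 5 of 6 GABA libraries above every placebo library. On the lower side, *Rbm47*, an RNA-binding protein, had 26.6 to 39.0 with placebo (median 28.9) and 11.6 to 18.6 with GABA (median 16.5, log2 fold change -0.94, SE 0.19, adjusted p = 0.057), its groups well apart, and it passed without GABA replicate 1 (adjusted p = 0.0196).

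The ATF4 amino acid response covers enzymes of serine and asparagine synthesis, transfer RNA synthetases and amino acid transporters that cells switch on when amino acids are short. Of 29 tested, 12 were higher (41.4%, against 5.15% of all genes) and 0 lower, with 0 called, and the median of 0.49 lay between 0.44 and 0.62 with each library left out. *Aars*, alanyl-tRNA synthetase, had 3.77 to 16.4 normalized molecules with placebo (median 12.2) and 17.3 to 22.4 with GABA (median 20.02, log2 fold change 0.89, SE 0.24, adjusted p = 0.195). *Psph*, the last enzyme of serine synthesis, had 0 to 3.73 with placebo (median 2.51) and 4.33 to 14.6 with GABA (median 6.06, log2 fold change 1.57, SE 0.45, adjusted p = 0.209). In both, all 6 GABA libraries lay above every placebo library. *Phgdh*, which opens that pathway, had 1.55 to 11.7 and 7.21 to 25.4 (medians 5.55 and 15.9, log2 fold change 1.36, adjusted p = 0.209), and *Asns*, asparagine synthetase, 1.55 to 6.27 and 4.33 to 18.6 (medians 2.19 and 9.98, log2 fold change 1.52, adjusted p = 0.195). Of these 5 of 6 GABA libraries lay above every placebo library. For both the exception was GABA replicate 2. The member with the highest mean, *Atf3*, went the other way, with 49.3 to 102 with placebo (median 72.4) and 42.3 to 73.0 with GABA (median 57.4, log2 fold change -0.29, adjusted p = 0.702), and 5 of 6 GABA libraries below the placebo median.

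Lipid synthesis genes gave fewer members. Of 26 genes of cholesterol synthesis and uptake 5 were higher (19.2%, against 5.15% of all genes) and 0 lower, with 1 higher when total molecules were a covariate and 3 without GABA replicate 1, and the median of 0.45 was 0.14 without GABA replicate 2. *Fdft1*, squalene synthase, had 0 to 3.11 normalized molecules with placebo (median 1.73) and 3.98 to 6.10 with GABA (median 4.24, log2 fold change 1.46, SE 0.53, adjusted p = 0.353), and *Srebf1*, a transcription factor of lipid synthesis, 0 to 5.48 and 3.32 to 9.06 (medians 2.79 and 6.65, adjusted p = 0.56). Outside the list, *Fasn*, fatty acid synthase, had 1.39 to 3.73 with placebo (median 2.32) and 6.41 to 12.5 with GABA (median 7.63, log2 fold change 1.66, SE 0.40, adjusted p = 0.117). *Ebp*, the member with the highest mean, went the other way, with 8.62 to 23.3 and 6.41 to 17.3 (medians 14.1 and 11.4, log2 fold change -0.39, adjusted p = 0.74). For *Fdft1* and *Fasn* all 6 GABA libraries lay above every placebo library, at numbers of molecules so low that counting error is large, and *Fasn* passed without GABA replicate 1 (adjusted p = 0.0439). Lipid-handling macrophage genes had 1 of 26 higher, *Trem2*, and 0 lower, or 3 and 0 without GABA replicate 1.

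Genes of cell division were tested as 2 lists. Of 65 mitosis and kinetochore genes 6 were higher (9.23%, against 5.15% of all genes) and 0 lower, with a median of 0.34 that was 0.21 without GABA replicate 3 and 0.52 without placebo replicate 5. Of 50 DNA replication genes 5 were higher (10%) and 1 lower. *Cdk1*, the kinase that drives entry into mitosis, had 1.24 to 24.5 normalized molecules with placebo (median 4.63) and 9.97 to 30.5 with GABA (median 18.1, log2 fold change 0.95, SE 0.37, adjusted p = 0.435), and its ranges overlapped. That value was 0.73 without placebo replicate 2 and 1.48 without placebo replicate 5. *H2afz*, the histone variant H2A.Z, had 36.3 to 104 with placebo (median 83.9) and 63.7 to 174 with GABA (median 119, log2 fold change 0.65, SE 0.20, adjusted p = 0.266), with 5 of 6 GABA libraries above every placebo library. It passed without GABA replicate 1 (adjusted p = 0.0304). Cells in division and the depth of a library can both move such genes, and the counts with total molecules as a covariate were 8 and 8 higher for the 2 lists, where 4.32% of all genes were. With the size factors of DESeq2 3 DNA replication genes were higher.

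Single nuclear and ribosomal transcripts did not pass with all libraries. Of 3 nuclear RNA genes tested 2 were lower, and *Kcnq1ot1* had a log2 fold change of 0.14 (adjusted p = 0.938), or -0.12 without GABA replicate 1. *Malat1* had 816 to 2028 normalized molecules with placebo (median 1050.2) and 611 to 1005 with GABA (median 674, log2 fold change -0.66, SE 0.16, adjusted p = 0.139), and *Neat1*, which builds paraspeckles, 46.1 to 82.3 and 31.2 to 39.8 (medians 56.4 and 34.3, log2 fold change -0.70, SE 0.17, adjusted p = 0.132). For *Neat1* all 6 GABA libraries and for *Malat1* 5 of 6 lay below every placebo library, and both were called by DESeq2 (adjusted p = 0.00994 for *Malat1* and 0.00969 for *Neat1*) and without GABA replicate 1. *Rn45s* had 23639 to 38195 with placebo (median 25696) and 12713 to 40049.6 with GABA (median 16353, adjusted p = 0.561), where GABA replicate 1 was the highest of all 12 libraries, and without it the gene passed (log2 fold change -0.71, adjusted p = 0.0305). *Mir6240* and *Lars2*, whose annotated loci are known to collect reads of ribosomal RNA, had log2 fold changes of -1.18 and -0.73 (adjusted p = 0.132 and 0.156) and passed without GABA replicate 1. The list of host transcripts of small nucleolar RNAs went the other way with 4 of 16 higher and 1 lower (all genes 5.15% and 3.31%), the latter being *BC018473*. That list was chosen with earlier results of these data known, and whether *BC018473* hosts such an RNA was not tested. *Gas5* had 27.7 to 65.8 with placebo (median 50.3) and 59.0 to 131 with GABA (median 66.3, log2 fold change 0.62, adjusted p = 0.315), and GABA replicate 1 was the highest.

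Antigen presentation and interferon genes had few members at an unadjusted p under 0.05 with all libraries. Of 12 MHC class II presentation genes 0 were higher and 0 lower, of 22 MHC class I genes 0 and 1, of 44 interferon-γ response genes 0 and 2, and of 51 type I interferon response genes 1 and 4, against 5.15% and 3.31% of all genes. The direction of the medians of the MHC lists changed with the scaling, from -0.04 to 0.01 for class II and from -0.01 to 0.05 for class I. *Ifngr1*, given above, was the member of the interferon-γ list with the smallest unadjusted p. Without GABA replicate 1 the counts higher and lower were 3 and 3 for interferon-γ, 7 and 3 for type I interferon and 3 and 1 for MHC class I, where 6.37% of all genes were higher and 4.45% lower. With total molecules as a covariate 4 interferon-γ genes and 1 type I interferon gene were lower.

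Genes for sensing and handling GABA were mostly too low to test. Of 40 on the list 18 had a molecule in any of the 12 libraries, 9 were tested and 0 were higher or lower at an unadjusted p under 0.05 in edgeR. No subunit of the GABA receptors was among the 9, which include *Glud1*, *Glul*, *Aldh9a1*, *Gphn*, *Slc12a2*, *Gabarap*, *Gabarapl1* and *Gabarapl2*. *Aldh9a1*, which can oxidize an aldehyde to GABA, had 8.30 to 16.7 normalized molecules with placebo (median 12.6) and 5.08 to 12.5 with GABA (median 10.6, adjusted p = 0.837). Its ranges overlapped.

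IL-10 signalling was tested through 17 genes, of which 4 were lower and 0 higher, against 3.31% and 5.15% of all genes. *Il10* had 0 to 1.39 normalized molecules with placebo and 0 to 2.03 with GABA, with a median of 0 in each group, and was too low to be tested. *Il10ra*, the ligand-binding receptor chain, had 19.4 to 50.2 with placebo (median 29.1) and 19.1 to 31.5 with GABA (median 24.3, log2 fold change -0.28, SE 0.21, adjusted p = 0.764, and -0.40 to -0.13 with each library left out), and *Il10rb*, the shared chain, 7.37 to 20.7 and 9.06 to 18.3 (medians 17.8 and 13.8, log2 fold change -0.10, SE 0.25, adjusted p = 0.953). The ranges of both receptors overlapped, and *Il10rb* changed sign when GABA replicate 1 and a placebo library were left out together. *Maf* and *Tnfrsf1b*, given above, are 2 of the 4 lower members.

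**Figure D3:**
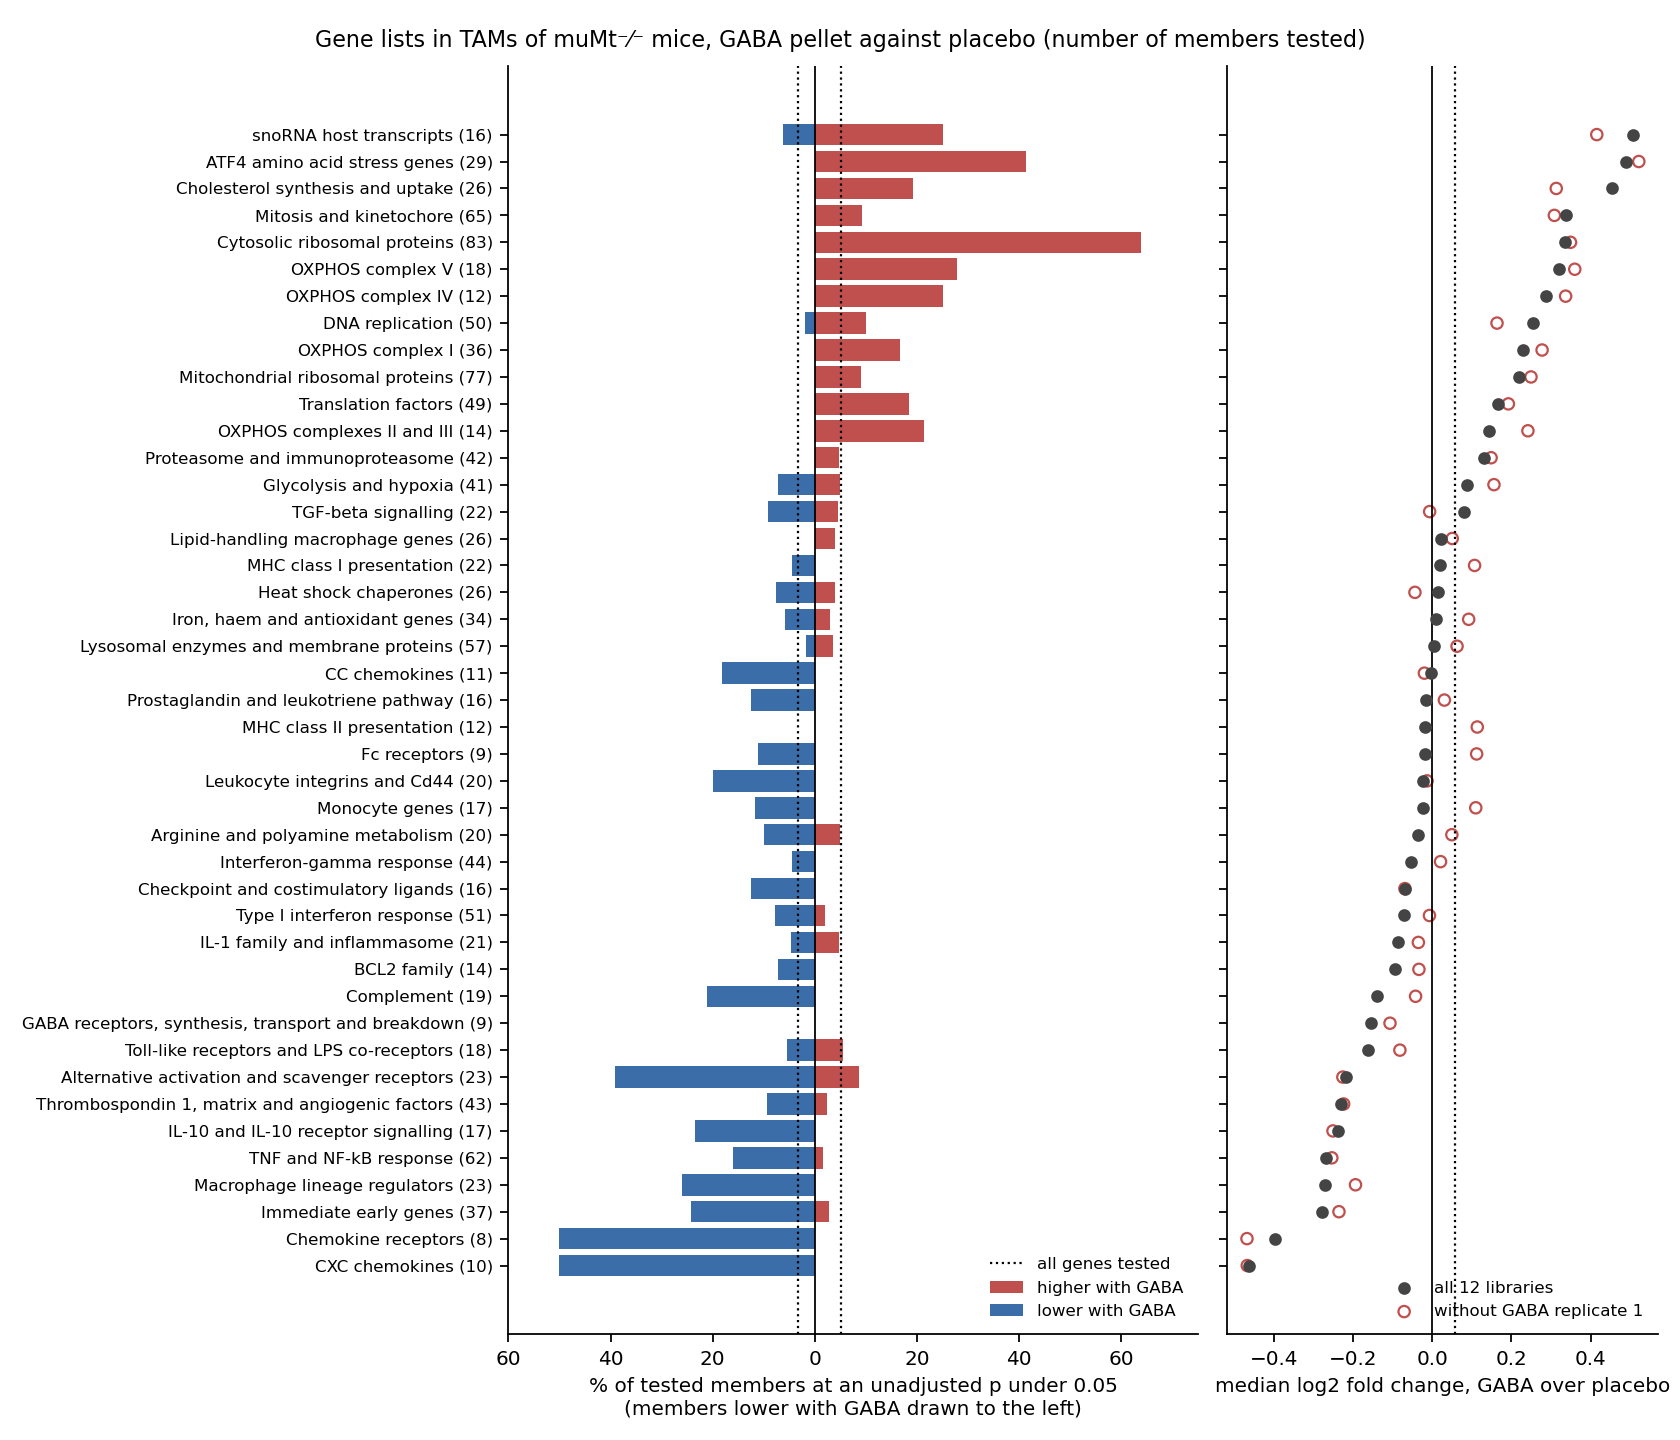
Bars give, for each list, the percent of tested members at an unadjusted p under 0.05, higher with GABA to the right and lower to the left, with dotted lines at 5.15% and 3.31% for all genes tested. Points give the median log2 fold change with all 12 libraries and without GABA replicate 1, and the bar of cytosolic ribosomal proteins reaches 63.9% on the higher side.

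*Ccdc36* and *Kif3a* shared nearly the same numbers. *Ccdc36* had 75.4 to 253 normalized molecules with placebo (median 134) and 151 to 493 with GABA (median 319, log2 fold change 1.03, SE 0.23, adjusted p = 0.057), and *Kif3a*, a kinesin motor, 82.9 to 253 and 149.98 to 489.9 (medians 137 and 324, adjusted p = 0.057). In both, 5 of 6 GABA libraries lay above every placebo library, and both passed without GABA replicate 1 (adjusted p = 0.0439). Across the 18 TAM libraries the ratio of *Kif3a* to *Ccdc36* stayed between 0.979 and 1.10 (median 1.01), so they cannot be told apart and count as 1 signal. Several other named genes overlap the interval of a tested gene, where reads of the shared stretch cannot be told apart. These pairs are *Zeb2* and *Zeb2os*, *C1qbp* and *Rpain*, *Aars* and *Ddx19b*, *Psph* and *Cct6a*, *Fdft1* and *Ctsb*, *Srebf1* and *Rai1*, and *Rpl32* and *Cand2*. Their counts are not the same, as *Rpain*, *Rai1* and *Cand2* had log2 fold changes of -0.38, -0.37 and -1.59, opposite to their partners. *Ctsb*, *Zeb2os*, *Ddx19b* and *Cct6a* had the signs of their partners (0.06, -0.47, 0.55 and 0.23).

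The placebo libraries were also set beside the WT libraries. The same 6 placebo libraries enter both comparisons, so opposite signs can arise from those libraries alone and no overlap is drawn. *BC018473* had a log2 fold change of -0.93 (SE 0.20) for placebo against WT, and its GABA libraries lay below every WT and every placebo library.

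The effect of the pellet was tested against that in CD8+ T cells. Over 6452 genes tested in both cell types, 0 (0%) had a different effect at an adjusted p under 0.05 in edgeR, with 288 at an unadjusted p under 0.05, and DESeq2 gave 0 and 290. In CD8+ T cells alone 0 of 6663 genes passed. The log2 fold changes of *BC018473* were -2.38 (TAMs) and -1.15 (T cells), and those of *Lrrc17* 1.58 and 0.06, with neither difference past the test. No gene can therefore be called particular to TAMs.

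Promoters of 3 lists were searched for letters known to bind their transcription factors, since members of these lists lay mostly on 1 side. RefSeq promoters (build GRCm38.p6, 250 bases before to 50 after the start) were matched by symbol. The amino acid response element TGATGNAAN, searched on both strands, was found in 1299 of 32851 promoters (3.95%), in 213 of 7478 promoters of tested genes (2.85%) and in 8 of 24 matched members of the ATF4 list. Of the 11 matched members at an unadjusted p under 0.05, 5 held it (*Trib3*, *Asns*, *Vldlr*, *Aars* and *Gars*). A κB-like run, GGGA and CC with 4 bases between them, was in 20.7% of promoters and 30.2% of those of tested genes. It was in 23 of 47 matched members of the TNF and NF-κB list. Among the 10 matched members at an unadjusted p under 0.05, 4 held it (*Nfkbia*, *Cxcl1*, *Cxcl2* and *Cxcl3*). A sterol response element of 10 letters was in 77 promoters (0.234%), in 13 of those of tested genes (0.174%), in 0 of 19 matched members of the cholesterol list and in 0 of the 3 of them at an unadjusted p under 0.05. Members named only for their match were picked after their values were seen. The lists hold known response genes of these factors, so more matches than among all genes can follow from that choice. A match is a description of letters and not of binding. Promoters of *Asns* (chr6:7693160-7693459, minus strand), *Aars* (chr8:111033592-111033891, plus strand, where the annotated interval of the gene begins earlier), *Cxcl1* (chr5:90890995-90891294, plus strand) and *Cxcl2* (chr5:90903649-90903948, plus strand) are shown because they carry the matches of genes described above. Capitals mark the matches on either strand, and where matches of the κB-like run overlap, the joined run is in capitals.
Asns: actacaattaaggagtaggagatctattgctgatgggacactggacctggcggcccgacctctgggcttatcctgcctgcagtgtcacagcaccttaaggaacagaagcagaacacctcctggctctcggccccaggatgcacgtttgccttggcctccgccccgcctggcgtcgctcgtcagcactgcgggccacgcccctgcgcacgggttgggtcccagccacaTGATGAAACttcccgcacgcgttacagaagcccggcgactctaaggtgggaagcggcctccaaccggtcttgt
Aars: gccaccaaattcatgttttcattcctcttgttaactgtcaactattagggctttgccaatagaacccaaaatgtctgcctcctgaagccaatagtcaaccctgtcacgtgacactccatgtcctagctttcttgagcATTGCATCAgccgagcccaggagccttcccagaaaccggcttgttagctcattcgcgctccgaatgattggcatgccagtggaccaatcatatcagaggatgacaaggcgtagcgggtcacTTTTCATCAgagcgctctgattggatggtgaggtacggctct
Cxcl1: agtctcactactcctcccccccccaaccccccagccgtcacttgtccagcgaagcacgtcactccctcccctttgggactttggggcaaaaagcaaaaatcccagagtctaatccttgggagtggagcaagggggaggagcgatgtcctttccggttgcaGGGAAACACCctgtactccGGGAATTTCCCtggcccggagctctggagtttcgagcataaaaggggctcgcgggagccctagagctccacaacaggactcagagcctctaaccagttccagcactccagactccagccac
Cxcl2: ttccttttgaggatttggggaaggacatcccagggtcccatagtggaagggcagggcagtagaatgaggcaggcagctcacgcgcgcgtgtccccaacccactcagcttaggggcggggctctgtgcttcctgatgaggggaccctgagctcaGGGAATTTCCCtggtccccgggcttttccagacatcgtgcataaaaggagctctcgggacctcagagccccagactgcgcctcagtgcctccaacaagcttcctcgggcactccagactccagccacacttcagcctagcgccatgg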

How the data were processed

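RNA from 100 sorted cells per mouse was sequenced with molecular barcodes, and the authors aligned reads with STAR to mm10 and deposited counts of distinct molecules per gene. Libraries were grouped by the labels. Genes with a mean normalized number above 1 (DESeq2 size factors) were tested with edgeR 4.0.16 (TMM, quasi-likelihood F-test, R 4.3.3) on 18 TAM libraries with a coefficient per group, with Benjamini-Hochberg adjustment at 0.05. DESeq2 1.42.0 served as an alternative. The difference between cell types was fitted to 36 libraries. Library measures had exact permutation tests over 924 arrangements (smallest p 0.00216) in Python 3.11.15. Named genes were those called, the 12 per direction with the smallest p and those called without GABA replicate 1 (both with a mean of at least 5), those the study names, up to 4 tested members per list with the smallest p and the member with the highest mean, and the tested genes of the GABA list. Some genes under this rule are not printed. There were 57 lists and 2 of the study. Members and lists were chosen with earlier results of these data known. Alternatives changed the scaling, the filter, the tool, the fit, a replicate block, total molecules as a covariate, and left out each library in turn. The fits were tested on simulated data.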

Additional observations from a re-analysis of the deposited data

Results flagged for a closer look

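In groups of 6 libraries, the highest or lowest value was compared with the nearest other value of its group, and 25 of 192 groups (13%) had a value far from the others. Chance gives about 1 in 20, a rate that does not hold for these genes, since some were named only because they passed without GABA replicate 1 (*Ccm2* and *2900060B14Rik*, which are 2 of its values below). By the same rule over all 5277 tested genes with a mean of at least 5, 817 of 10554 groups (7.74%) had such a value, in GABA replicate 1 for 288 genes (5.46%) and in placebo replicate 4 for 131 (2.48%). Of the 25, GABA replicate 1 held 8, placebo replicate 4 held 8, GABA replicate 3 held 3, GABA replicate 2 held 2, and placebo replicates 3 and 5 and GABA replicates 5 and 6 held 1 each.

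Placebo replicate 4 was the highest of its group in the share on nuclear RNA (1.05%, nearest 0.606%). Its normalized molecules were also the highest for *Ccr2* (477, nearest 281), *Malat1* (2028, nearest 1141), *Zeb2* (255, nearest 118), *Mrc1* (191, nearest 54.6), *Ccl17* (34.9, nearest 5.48) and *Il10* (1.39, nearest 0), and the lowest for *Rps19* (83.7, nearest 147). GABA replicate 1 had the lowest median correlation of its group (0.721, nearest 0.786). It was highest for *Zeb2* (158, nearest 88.6), *2900060B14Rik* (51.8, nearest 24.2), *Tnf* (21.2, nearest 8.65), *Sqle* (15.9, nearest 7.21), *Mrc1* (74.3, nearest 31.6) and *Gas5* (131, nearest 71.4), and lowest for *Ccm2* (0, nearest 9.37).

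GABA replicate 2 had the highest share of its group on B cell markers (0.00457%, nearest 0.00164%) and on fibroblast markers (0.284%, nearest 0.104%). Placebo replicate 5 had the lowest share on neutrophil markers (0.0130%, nearest 0.0254%) and placebo replicate 3 the highest on dendritic cell markers (0.0143%, nearest 0.00631%). GABA replicate 3 was highest for the share on erythroid markers (0.00430%, nearest 0.000381%), for *Il10* (2.03 normalized molecules, nearest 0.721) and for *Fdft1* (6.10, nearest 4.58). GABA replicate 5 was lowest for *Pf4* (2.01, nearest 17.4) and GABA replicate 6 highest for *Fasn* (12.5, nearest 8.13).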

How the results depend on the processing

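The number of genes called was 2. It was 7 with total molecules as the only scaling, 62 with DESeq2's Wald test, 51 without a filter on low counts, 4 with replicate number as a block, 4 in the robust fit (1 of them shared with the 2) and 5 with total molecules as a covariate. With each library left out it lay between 2 and 35, the highest without GABA replicate 1. With GABA replicate 1 and placebo replicate 4 both left out it was 4, and with GABA replicate 1 and placebo replicate 1 it was 15. Both pairs were added once values had been looked at, so they were chosen after seeing the data, the first before the libraries had been compared with each other and the second as the libraries with the lowest median correlation of their groups. The cause was not tested. Replicate numbers do not pair libraries, as correlations between libraries of the same number lay between -0.08 and 0.08.

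The 801 genes at an unadjusted p under 0.05 became 469 under edgeR's own filter, which tests fewer genes, and 646 to 1024 with each library left out. The 56 genes whose groups do not overlap became 74 to 149, which fewer libraries make easier by construction. The difference from CD8+ T cells gave 0 calls under every alternative tried. The ratio of total molecules lay between 1.16 and 1.39.

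Of 1883 comparisons of 79 named genes with an alternative, 1742 kept direction and side of the threshold, 120 passed it in the same direction and 1 lost its call (*Lrrc17* in the robust fit). The other 20 changed sign, 11 of them *Cxcl9*, 4 *Rps26* and 2 *Kcnq1ot1*. *Cxcl9* had a log2 fold change of 0.0239 with all libraries, of -0.0021 with the size factors of DESeq2, -0.001 in DESeq2, -0.0031 under edgeR's own filter, -0.0041 with a mean above 5, -0.0074 with replicate number as a block and -0.1619 with total molecules as a covariate. With each library left out it lay between -0.13 (without GABA replicate 5) and 0.1744 (without GABA replicate 1). *Rps26* had 0.1017 with that covariate and lay between -0.1469 (without GABA replicate 1) and 0.0414 (without placebo replicate 1). *Kcnq1ot1* lay between -0.1158 (without GABA replicate 1) and 0.2625 (without placebo replicate 1), and was -0.0378 with the first pair left out. Of the last 3, *Il10rb* had a log2 fold change of 0.0326 with the first pair left out and 0.032 with the second, and *Tnf* had 0.0454 without placebo replicate 2, where its values with each library left out ranged from -0.64 to 0.0454. List medians moved beyond the spread of replicates 3 times (alternative activation -0.43, matrix -0.06, cholesterol 0.14), and 683 did not. The cause was not tested.

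Depth limits genes under about 5 normalized molecules, where a library of 100254 molecules holds few. The shallowest libraries are placebo libraries, so depth and group overlap in part. The 100 cells per library, the single day and the pellet given before the tumour limit the comparison to these conditions, and cell number and RNA per cell cannot be told apart.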

Other observations

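Lists not described with the results gave few members at an unadjusted p under 0.05. Higher and lower members were 1 and 1 of 21 for IL-1 and inflammasome genes, 1 and 1 of 18 for Toll-like receptors, 0 and 1 of 9 for Fc receptors, 0 and 2 of 17 for monocyte genes and 0 and 2 of 16 for checkpoint and costimulatory ligands. For arginine and polyamine metabolism they were 1 and 2 of 20, for heat shock chaperones 1 and 2 of 26, for glycolysis and hypoxia 2 and 3 of 41 and for iron, haem and antioxidant genes 1 and 2 of 34. Lysosomal genes had 2 and 1 of 57, prostaglandin and leukotriene genes 0 and 2 of 16, TGF-β signalling 1 and 2 of 22 and proteasome genes 2 and 0 of 42. Several counts moved without GABA replicate 1, to 6 and 2 for lysosomal genes, 6 and 3 for glycolysis and hypoxia, 6 and 0 for proteasome genes, 3 and 1 for TGF-β signalling, 2 and 0 for Toll-like receptors and 1 and 3 for checkpoint and costimulatory ligands. Over all genes the shares higher and lower were then 6.37% and 4.45%, against 5.15% and 3.31% with all libraries.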
